A study of Homo sapiens with 6 samples.

Results

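The integrated stress response and amino acid supply genes studied here were 36 genes fixed by name, and all 36 were found by symbol among the 17579 genes of the deposited gene table. The cells were LP-1, an established line from a human multiple myeloma (a plasma cell cancer) that the labels call a B lymphoblast, and total RNA was sequenced on the BGISEQ500 platform. The cells had been infected with a virus carrying a guide RNA against AURKA, which encodes Aurora A, a kinase of mitosis (labelled Aurora A-KO, 3 libraries), or with a virus whose guide has no target (NT Control, 3 libraries). Both groups were infected and grown in medium with serum. The labels do not say whether the infected cells were a pool or a clone, nor whether each replicate was its own culture. The spread behind every p-value is therefore that between these libraries, and it may be technical. Below, A1 to A3 are AURKA-guide replicates 1 to 3, and C1 to C3 are the same numbers of the control.

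The integrated stress response is a switch on protein synthesis. The kinases EIF2AK1 (HRI), EIF2AK3 (PERK), EIF2AK4 (GCN2) and EIF2AK2 (PKR) sense heme lack or mitochondrial stress, unfolded protein in the endoplasmic reticulum, amino acid lack and double-stranded RNA, and each phosphorylates the alpha subunit of the initiation factor eIF2 (EIF2S1). General translation then falls while that of ATF4 rises, and ATF4 switches on genes that import and make amino acids and charge tRNAs. Plasma cells and myeloma cells secrete large amounts of immunoglobulin and are known for their reliance on the unfolded protein response. Much of the switch is in translation and phosphorylation, which RNA-seq does not measure.

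Many ATF4 targets carry a C/EBP-ATF response element, whose core reads TGATGNAA. The 12 sequences that follow are shown because they hold this core in a promoter window, and so tell which members carry the match. Each is 30 bases on the strand that reads the core, from 5′ to 3′, with the core in capitals, from the RefSeq promoter windows of build GRCh38.p14 (250 bases before to 50 after an annotated start).
ASNS, chr7:97872458-97872487, minus strand: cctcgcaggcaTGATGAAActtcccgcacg
CHAC1, chr15:40953251-40953280, minus strand: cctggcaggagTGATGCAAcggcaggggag
CEBPG, chr19:33374060-33374089, plus strand: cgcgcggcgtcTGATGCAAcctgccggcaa
ATF3, chr1:212565205-212565234, plus strand: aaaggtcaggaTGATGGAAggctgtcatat
PPP1R15B, chr1:204412026-204412055, minus strand: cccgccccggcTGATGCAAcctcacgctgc
SLC1A5, chr19:46784893-46784922, minus strand: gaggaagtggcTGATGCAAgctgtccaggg
SLC3A2, chr11:62881719-62881748, minus strand: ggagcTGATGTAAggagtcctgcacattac
SLC7A1, chr13:29595663-29595692, minus strand: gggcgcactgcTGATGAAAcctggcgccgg
SLC38A1, chr12:46266502-46266531, minus strand: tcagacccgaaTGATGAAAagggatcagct
AARS, chr16:70289675-70289704, plus strand: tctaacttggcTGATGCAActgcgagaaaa
GARS, chr7:30594834-30594863, minus strand: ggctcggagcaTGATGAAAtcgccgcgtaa
NARS, chr18:57621804-57621833, minus strand: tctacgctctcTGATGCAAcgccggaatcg

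The core was searched on both strands, and 12 of the 32 members with a window held it (37.5%), against 4.46% of the 27305 genes with a window and 3.62% of the 35116 windows. The members were listed as genes of this response, so their higher share is no separate support for a link to ATF4. A match is a description of the sequence and not a measured binding site. The next sequence is the 250 bases upstream of the ASNS start (chr7:97872409-97872658, minus strand, GRCh38.p14), shown because ASNS, which makes asparagine, has the best known of these elements. Capitals mark its core, which begins 68 bases before the start, and the GTTACA that follows after 12 bases and is the other part of the nutrient-sensing unit of this gene.
ASNS upstream region: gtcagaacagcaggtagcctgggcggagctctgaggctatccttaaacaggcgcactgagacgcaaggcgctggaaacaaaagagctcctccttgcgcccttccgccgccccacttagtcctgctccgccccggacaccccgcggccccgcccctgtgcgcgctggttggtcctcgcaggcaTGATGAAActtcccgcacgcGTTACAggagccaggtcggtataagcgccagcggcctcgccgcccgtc
GTTACA, on either strand, was in 6.66% of all windows.

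The libraries held between 17724174 and 18523594 expected counts, the read numbers that RSEM estimates for each gene. CPM is a gene's count scaled to a library of fixed size. AURKA, the targeted gene, was at 113, 119 and 113 CPM in A1 to A3 and at 189, 192 and 195 CPM in C1 to C3, a fall to 0.599 of the control level (edgeR adjusted p = 1.55e-06), so its RNA was reduced and not absent. In bulk RNA, fewer cells with a transcript and less of it per cell cannot be told apart. RNA-seq does not measure Aurora A protein, and the RNA level does not tell how much of the protein remained. All 8 plasma cell or myeloma markers fixed for this work passed the filter on low counts. Their summed level was 1335 to 1344 FPKM in AURKA-guide and 1376 to 1409 FPKM in control libraries (FPKM, the authors' values scaled by gene length and library). XBP1, near 800 FPKM, made up most of that sum, and 2 of the 8 markers passed the test, in opposite directions. The surface enzyme CD38 rose, at a log2 fold change of 0.38 (SE 0.0456, edgeR adjusted p = 0.000416), and the growth factor receptor FGFR3 fell, at -0.24 (SE 0.0565, edgeR adjusted p = 0.0424). The part of these differences in the members' values was not tested. Each of the T and NK cell, erythroid, myeloid, stromal and epithelial marker lists summed to at most 3.55 FPKM in any library, with CD3E and NKG7 listed at 0 in most of them. The control libraries lay further apart than the AURKA-guide libraries, most of all in the pairs with C3. The chi-square per gene, which compares a pair of libraries with counting noise, was 2.3 to 2.74 between AURKA-guide libraries. The control libraries were at 3.08 for C1 and C2, 5.52 for C1 and C3 and 11.1 for C2 and C3. Their dependence on transcript GC content differed most, with a slope of 0.113 on the log2 scale per 10 percentage points of GC in C2 and -0.055 in C3, and C3 was the control library nearest to the AURKA-guide mean for 46.0% of all tested genes. Results are also given without C3, though its slope lay near those of A2 (-0.046) and A3 (-0.064). The part of GC content in these results was not tested beyond a correction for it.

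No member passed the test. Of 13138 genes tested with edgeR, 267 passed an adjusted p of 0.05, which is 2.03%, and none of the 35 members tested was among them, beside 0.959% of all genes called higher and 1.07% called lower. At an unadjusted p under 0.05 there were 7 members, 3 higher and 4 lower in AURKA-guide libraries, beside 16.1% of all tested genes, 7.54% higher and 8.58% lower. DESeq2 called none of the 35 either, beside 2.14% of all genes in that test. The groups did not overlap for 6 members, beside 20.8% of all tested genes. The median log2 fold change (AURKA guide over control) was 0.010 for the members, with 20 above and 15 below 0, and -9.41e-05 for all tested genes. The authors' deposited table of 229 changed genes holds no member.

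The intervals bound the difference between these libraries only, since the spread behind them may be technical. The 95% interval of the fold change lay within 1.25-fold in both directions for 29 of the 35 members, beside 62.7% of all tested genes, and within 1.5-fold for 34, beside 82.8%. ATF3 was the exception at 1.5-fold, and DDIT3, CEBPB, CHAC1, CTH and CBS were the others whose interval reached beyond 1.25-fold. These shares were not matched for abundance, on which the width of an interval depends.

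**Figure D1:**
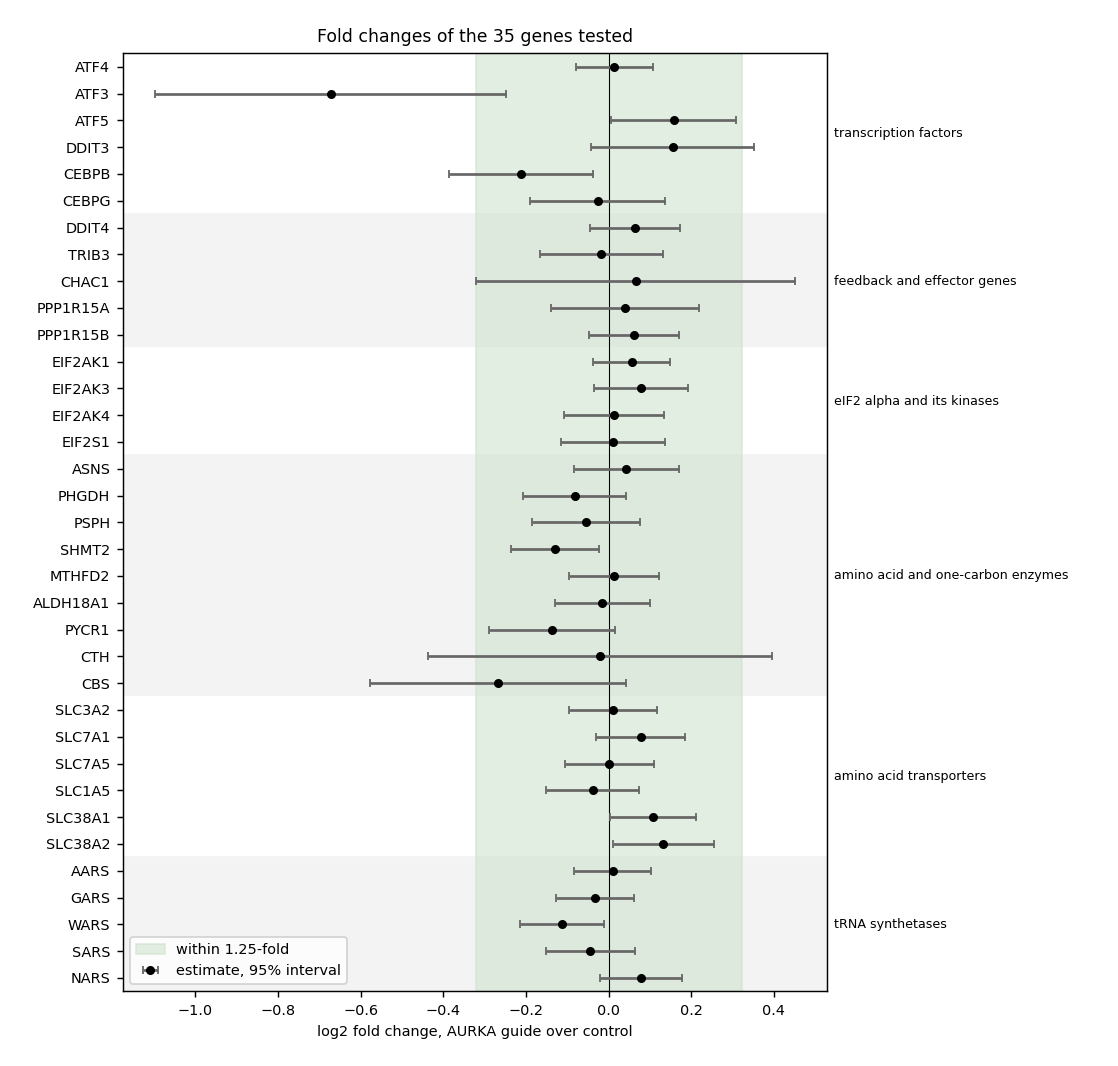
The log2 fold change (AURKA guide over control, horizontal axis) of the 35 members tested, by role, with bars for the 95% interval and a shaded band for changes within 1.25-fold. The intervals of 29 members lie inside the band, and ATF3 at -0.67 lies farthest from 0.

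The members ranged widely in level. The mean over the 6 libraries was at least 100 FPKM for 7 members, from 10 to under 100 for 22, from 1 to under 10 for 6 and under 1 for 1, and 14 were among the top 10% of all genes. ATF4 was the most abundant at 304 FPKM, followed by the mitochondrial serine hydroxymethyltransferase SHMT2 at 162 and the synthetases GARS, AARS and NARS at 148, 117 and 107 FPKM. ATF3 and the glutathione-degrading enzyme CHAC1, both known as strongly stress-induced targets, averaged 1.21 and 1.68 FPKM. CTH and CBS, the enzymes that turn homocysteine into cysteine, averaged 1.36 and 2.13 FPKM.

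**Figure D2:**
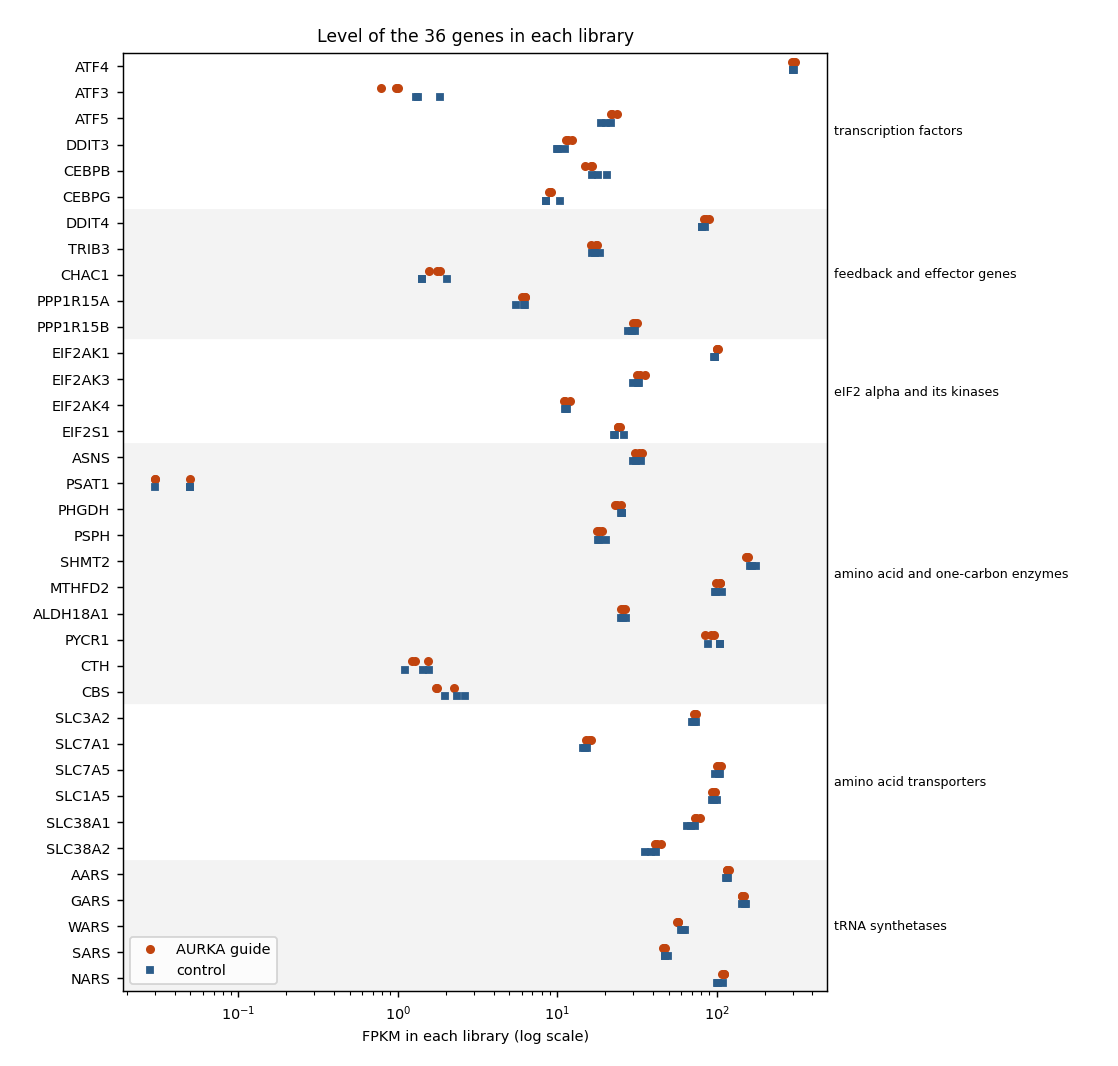
The level of each of the 36 genes in FPKM (horizontal axis, log scale) in the 3 AURKA-guide libraries (circles, upper) and the 3 control libraries (squares, lower), by role. The levels of both groups lie close together, with ATF3 farthest apart among the tested genes, over a range from PSAT1, under 0.1 FPKM, to ATF4, near 300 FPKM.

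Among the transcription factors, ATF4 itself, the activator at the centre of the response, was at 447, 453 and 430 CPM in A1 to A3 and at 436, 442 and 439 CPM in C1 to C3. The groups overlapped, and the interval of the fold change ran from 0.947 to 1.08. ATF3, a stress-induced repressor of the same family, was at 2.19, 1.64 and 2.28 CPM in AURKA-guide and at 2.81, 3.94 and 3.01 CPM in control libraries. Every AURKA-guide library was below every control library, at a log2 fold change of -0.67 (SE 0.199, edgeR adjusted p = 0.114), which did not pass over all genes. CEBPB, the C/EBP factor that pairs with ATF4, was at 34.5, 31.4 and 34.9 CPM in AURKA-guide and at 38.3, 43.8 and 34.8 CPM in control libraries. C3 lay within the range of the AURKA-guide libraries, and the log2 fold change was -0.21 (SE 0.0816, edgeR adjusted p = 0.219). ATF5, a factor translated like ATF4 under stress, was at 52.2, 47.0 and 48.0 CPM in AURKA-guide and at 43.8, 47.8 and 40.4 CPM in control libraries. The groups overlapped through C2, at 0.16 (SE 0.0711, edgeR adjusted p = 0.290). DDIT3 (CHOP), the pro-apoptotic factor downstream of ATF4, averaged 11.8 FPKM in AURKA-guide and 10.5 FPKM in control libraries, a log2 fold change of 0.15 (SE 0.0919, edgeR adjusted p = 0.429). CEBPG, another partner of ATF4, was at -0.03 (SE 0.0764).

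The feedback and effector genes showed no member with an unadjusted p under 0.05. DDIT4 (REDD1), an inhibitor of mTORC1, was at 157, 150 and 145 CPM in AURKA-guide and at 142, 149 and 141 CPM in control libraries. The groups overlapped, at a log2 fold change of 0.06 (SE 0.0511, edgeR adjusted p = 0.560). PPP1R15B, the constitutive subunit of the eIF2 alpha phosphatase, was at 163, 159 and 165 CPM in AURKA-guide and at 155, 148 and 163 CPM in control libraries, and its groups overlapped through C3. PPP1R15A (GADD34), the inducible subunit that ends the response, averaged 6.21 FPKM in AURKA-guide and 6.02 FPKM in control libraries. TRIB3, a pseudokinase that holds back ATF4, averaged 17.2 FPKM in AURKA-guide and 17.4 FPKM in control libraries. CHAC1 averaged 1.73 FPKM in AURKA-guide and 1.62 FPKM in control libraries. The log2 fold changes of these 5 genes lay between -0.02 and 0.07.

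The kinases and their substrate all had intervals within 1.25-fold. EIF2AK1 (HRI) was at 323, 323 and 324 CPM in A1 to A3 and at 307, 315 and 311 CPM in C1 to C3. Every AURKA-guide library was above every control library, but the difference was 0.06 on the log2 scale (SE 0.0432, edgeR adjusted p = 0.549). EIF2AK3 (PERK) was at 144, 148 and 159 CPM in AURKA-guide and at 144, 137 and 145 CPM in control libraries, with overlapping groups and a log2 fold change of 0.08 (SE 0.0531, edgeR adjusted p = 0.487). EIF2AK4 (GCN2) and EIF2S1 were both at 0.01 (SE 0.0567 and 0.0593). By FPKM, which allows a comparison between genes, HRI was the most abundant of these kinases at 99.2 FPKM over the 6 libraries, PERK stood at 32.6 and GCN2 at 11.4, and this order held in all 6 libraries.

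The enzymes that make amino acids and one-carbon units had mean levels from 0.04 FPKM for PSAT1 to 162 FPKM for SHMT2. Serine is made from a glycolytic intermediate by PHGDH, then PSAT1, then PSPH. PHGDH averaged 24.0 ± 0.928 FPKM in AURKA-guide and 25.4 ± 0.126 FPKM in control libraries, and PSPH 18.4 ± 0.664 and 18.9 ± 1.32 FPKM in AURKA-guide and control libraries (SD, n = 3 each). PSAT1, the middle enzyme, had 2, 1 and 1 expected counts in A1 to A3 and 2, 1 and 2 in C1 to C3, at most 0.05 FPKM, and was the only member with too few counts to be tested. Its RNA was thus close to the limit of detection in both groups, and no fold change is given.

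SHMT2, which splits serine into glycine and a one-carbon unit, was at 324, 319 and 309 CPM in AURKA-guide and at 342, 368 and 332 CPM in control libraries. The groups did not overlap, and the log2 fold change of -0.13 (SE 0.0498, edgeR adjusted p = 0.214) did not pass. PYCR1, which completes proline synthesis, was at 179, 173 and 157 CPM in AURKA-guide and at 195, 200.5 and 164 CPM in control libraries, at -0.14 (SE 0.0712, edgeR adjusted p = 0.358), with C3 within the AURKA-guide range. PHGDH was lower in every AURKA-guide library than in every control library, at -0.08 (SE 0.0581, edgeR adjusted p = 0.507). ASNS, whose upstream region is printed above, was at 0.04 (SE 0.0596), and its fold change had an interval from 0.943 to 1.13. The folate enzyme MTHFD2, which follows SHMT2, was at 0.01 (SE 0.0509), ALDH18A1, which starts proline synthesis, at -0.01 (SE 0.0536), PSPH at -0.05 (SE 0.0609) and CTH at -0.02 (SE 0.195). CBS was at -0.27 (SE 0.145, edgeR adjusted p = 0.381), but the table also lists its near-identical copy CBSL and reads may be split between them. The FPKM of the pair summed to 3.43, 3.16 and 3.35 in A1 to A3 and to 5.06, 4.66 and 4.06 in C1 to C3, and every AURKA-guide library was below every control library in that sum, which was formed after its parts were seen and was not tested.

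Among the transporters, 2 glutamine carriers of the SLC38 family had an unadjusted p under 0.05. SLC38A1 (SNAT1) was at 575, 565 and 606 CPM in AURKA-guide and at 541, 514 and 565 CPM in control libraries, at a log2 fold change of 0.11 (SE 0.0487, edgeR adjusted p = 0.288). SLC38A2 (SNAT2) was at 198, 203 and 215 CPM in AURKA-guide and at 187, 174 and 201 CPM in control libraries, at 0.13 (SE 0.0572, edgeR adjusted p = 0.273). In both, C3 overlapped the AURKA-guide libraries while C1 and C2 lay below them. The leucine carrier SLC7A5 (LAT1) and its heavy chain SLC3A2, which work as a pair, were at 0.0020 (SE 0.0506) and 0.01 (SE 0.0498), the arginine carrier SLC7A1 at 0.08 (SE 0.0505) and the glutamine carrier SLC1A5 (ASCT2) at -0.04 (SE 0.0529). All 6 intervals lay within 1.25-fold. SLC7A5 has copies elsewhere in the genome, and the sources used here do not give how shared reads were counted.

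The tRNA synthetases were abundant and varied little. WARS, which charges tRNA with tryptophan and is also induced by interferon, was at 148, 152 and 149 CPM in AURKA-guide and at 161, 166 and 157 CPM in control libraries. The groups did not overlap, at a log2 fold change of -0.11 (SE 0.0478, edgeR adjusted p = 0.262). NARS, the asparagine enzyme, was at 304, 310 and 308 CPM in AURKA-guide and at 286, 283 and 305 CPM in control libraries, at 0.08 (SE 0.0468, edgeR adjusted p = 0.427), with C3 inside the AURKA-guide range. The serine enzyme SARS was lower in every AURKA-guide library than in every control library, at -0.04 (SE 0.0503), and AARS and GARS, for alanine and glycine, were at 0.01 (SE 0.0441) and -0.03 (SE 0.0441).

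The 12 members whose window held the ATF4 core (sequences above) had a median log2 fold change of 0.027, over a range from -0.67 for ATF3 to 0.11 for SLC38A1, and that of the 19 other tested members with a window was 0.010, over a range from -0.27 to 0.16. Sequence outside the windows was not searched, so a gene among the 19 may still have such an element. These values are a description, and no difference between the sets was tested.

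**Figure D3:**
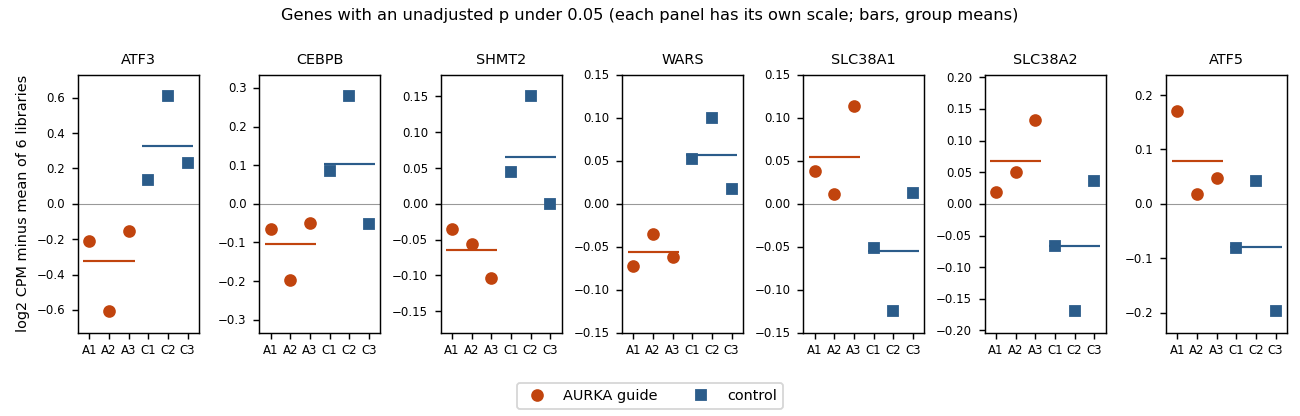
The log2 CPM of the 7 members with an unadjusted p under 0.05 in each library, as the difference from the mean of the 6 libraries (vertical axis, own scale per gene), with AURKA-guide libraries (A1 to A3) left, control libraries (C1 to C3) right, and bars for group means. C3 is the control library nearest to the AURKA-guide mean in 5 of the 7 panels.

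Which members passed depended on the fit. C3 was the control library most often nearest to the AURKA-guide mean. Leaving it out changes both the difference between the groups and the spread between the control libraries. The part of each in the calls was not tested, and the calls made without C3 are no separate support. Without C2, whose GC slope was the highest, no member was called, beside 1.76% of all genes tested in that fit. Without C3 the edgeR test called 7 of 35 members, 2 higher and 5 lower, beside 15.3% of all genes tested in that fit. These were ATF3 at a log2 fold change of -0.73 (adjusted p = 0.0342), CEBPB at -0.29 (adjusted p = 0.0110), PYCR1 at -0.22 (adjusted p = 0.00757), SHMT2 at -0.17 (adjusted p = 0.0176), WARS at -0.14 (adjusted p = 0.0432), SLC38A1 at 0.14 (adjusted p = 0.0356) and SLC38A2 at 0.18 (adjusted p = 0.0160). C3 was the control nearest to the AURKA-guide mean for 5 of the 7 members with an unadjusted p under 0.05, beside 65.1% of all tested genes at that p. Over all 35 tested members it was the nearest for 14 (40%), beside 46.0% of all tested genes. The spread between replicates, as a coefficient of variation, was larger in control than in AURKA-guide libraries for 29 of 35 members (82.9%), beside 65.8% of all tested genes. Its median over the members was 3.02% in AURKA-guide and 5.07% in control libraries. These shares too were not matched for abundance, on which such a coefficient depends.

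After a correction for transcript GC content, 2 of 35 members were called, beside 6.01% of all tested genes. ATF5 was then at a log2 fold change of 0.23 (edgeR adjusted p = 0.00391) and DDIT4 at 0.12 (edgeR adjusted p = 0.0354), both higher in AURKA-guide libraries. No member was called both without C3 and after the correction. Of the 7 members called without C3, CEBPB was at -0.09 and PYCR1 at -0.05 after the correction, and SLC38A1 and SLC38A2 were both at 0.06. ATF3 was at -0.67 (edgeR adjusted p = 0.0511), WARS at -0.10 (edgeR adjusted p = 0.0707) and SHMT2 at -0.09 (edgeR adjusted p = 0.0796), each with a lower adjusted p than without the correction. The tested members had a median transcript GC content of 51.5%, beside 48.5% for all tested genes.

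**Figure D4:**
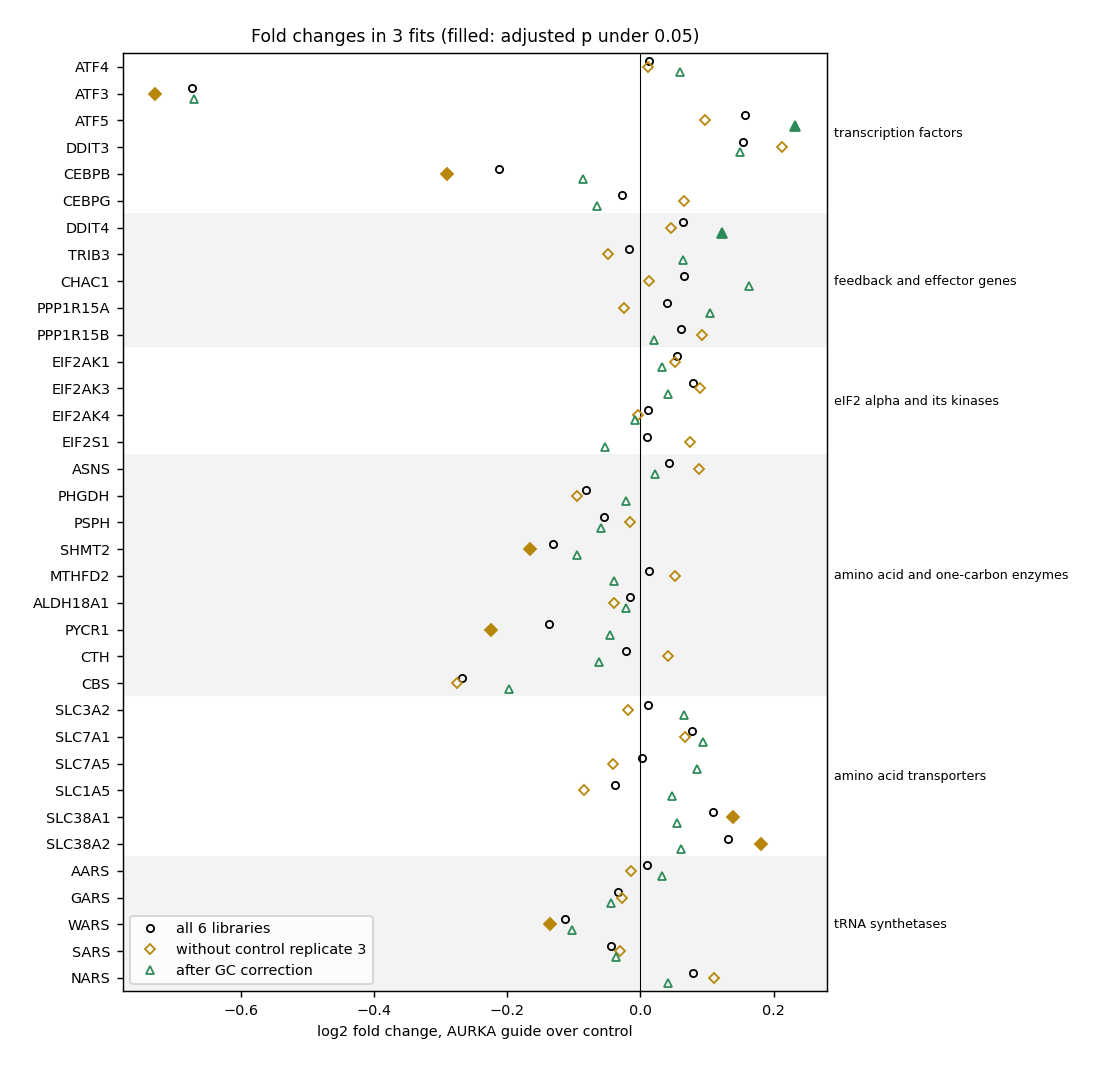
The log2 fold change (horizontal axis) of the 35 tested members with all 6 libraries (circles), without control replicate 3 (diamonds) and after the GC correction (triangles). Filled symbols have an adjusted p under 0.05: none of the circles, 7 diamonds and 2 triangles, and no gene has both.

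The transcript table held 168 transcripts of the members, of which 120 passed the filter, and edgeR called none, beside 0.00227% of 43979 transcripts tested. That test called almost no transcript of any gene, so it cannot tell whether member transcripts changed. At an unadjusted p under 0.05 there were 5 member transcripts, beside 3.85% of all, and the DESeq2 test called 1 of 119, beside 2.04% of all. That transcript, a predicted PSPH form, was at 2.81, 4.13 and 4.81 CPM in A1 to A3 and at 0.437, 0.459 and 1.15 CPM in C1 to C3. It made up 8.39% of PSPH expected counts in AURKA-guide and 1.38% in control libraries, and edgeR did not call it (log2 fold change 2.51, SE 0.630, adjusted p = 0.627). ATF4 RNA was mostly 1 transcript, 91.8 ± 0.588% of its expected counts in AURKA-guide and 92.8 ± 0.413% in control libraries (SD, n = 3 each). The next ATF4 transcript was at 37.8, 32.2 and 32.3 CPM in AURKA-guide and at 28.6, 27.6 and 29.1 CPM in control libraries, with groups that did not overlap and a log2 fold change of 0.26 (SE 0.0962) that did not pass. A minor EIF2AK1 transcript, 12.4% of the gene in AURKA-guide and 10.6% in control libraries, was likewise higher in every AURKA-guide library, at 0.28 (SE 0.0899). The other two were lower in every AURKA-guide library than in every control library. A minor WARS transcript was at 2.92, 6.22 and 10.9 CPM in A1 to A3 and at 21.0, 15.96 and 14.1 CPM in C1 to C3, at -1.35 (SE 0.503). It made up 4.42% of WARS expected counts in AURKA-guide and 10.4% in control libraries. The main SHMT2 transcript, 67.8% of the gene in AURKA-guide and 68.6% in control libraries, was at -0.15 (SE 0.0517). The authors' deposited transcript table gives a q-value under 0.05 to 1 member transcript, a PYCR1 form with a log2 fold change of 21.3. Here that form had reads in 1 library, at 7.82 CPM in A3 and 0 in the other 5, and was too low to be tested. RSEM divides reads among transcripts that share most of their sequence, and single forms are less certain than genes.

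Among the other genes of the pathway, STC2 fell. This secreted glycoprotein, an ATF4 target induced by endoplasmic reticulum stress, was at 9.90, 9.81 and 9.87 CPM in A1 to A3 and at 16.4, 15.4 and 14.9 CPM in C1 to C3. The AURKA-guide libraries were all below the control libraries, at a log2 fold change of -0.66 (SE 0.0842, edgeR adjusted p = 0.000639). It was the 1 gene called among 61 tested of 64 listed, beside 2.03% of all tested genes. STC2 is also in the authors' deposited table at -0.66 (q = 0.00012), which was made from the same libraries. The list was drawn up with earlier results of these data known, so the call of STC2 is not separate support. The median of these genes was -0.02, and 12 of the 61 had an unadjusted p under 0.05, 3 higher and 9 lower, beside 16.1% of all tested genes, 7.54% higher and 8.58% lower.

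The others in that list did not pass. Among the other ATF4 and CHOP targets, EIF4EBP1 (4E-BP1), an inhibitor of cap-dependent translation, was at -0.22 (SE 0.0725, edgeR adjusted p = 0.151). In the transporters, SLC38A5 was at -0.19 (SE 0.0512, edgeR adjusted p = 0.0809) and SLC38A7 at -0.15 (SE 0.0598). In the synthetases, EPRS, for glutamate and proline, was at 0.18 (SE 0.0523, edgeR adjusted p = 0.115) and VARS, for valine, at -0.16 (SE 0.0546, edgeR adjusted p = 0.179). Among the enzymes, the glutamine synthetase GLUL was at 0.30 (SE 0.0919, edgeR adjusted p = 0.123) and the branched-chain aminotransferase BCAT2 at -0.17 (SE 0.0687, edgeR adjusted p = 0.240). A further group of 11 genes held subunits of eIF2 and of its exchange factor eIF2B, EIF2A, EIF2AK2 and regulators of GCN2. None of these 11 had an unadjusted p under 0.05. IMPACT, an inhibitor of GCN2, was at 0.12 (SE 0.0841) and the RNA-sensing kinase EIF2AK2 (PKR) at -0.09 (SE 0.0614). Without C3, 15 of the 61 (24.6%) were called, 6 higher and 9 lower, beside 15.3% of all genes tested in that fit. After the GC correction 6 (9.84%) were called, 3 in each direction, beside 6.01% of all tested genes. The genes called in both were STC2, EPRS and SLC38A5, with EPRS at 0.22 and 0.13 and SLC38A5 at -0.22 and -0.14.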

How the data were processed

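RNA-seq of 6 LP-1 libraries was analysed, 3 with the AURKA guide and 3 with the control guide. RSEM, Bowtie2, BWA and build hg19 are named, per the submitters' processing notes, with roles, versions, settings and strandedness not stated there. The authors deposited expected counts for genes and transcripts, and 44.8% of the gene values were not whole. Per the file headers, FPKM values and comparison tables with log2 fold changes and DESeq2 q-values were made by the authors. The sign of those fold changes was read from AURKA, which is negative.

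After rounding, expected counts went into edgeR 4.0.16 (R 4.3.3): filterByExpr, TMM scaling, the quasi-likelihood F test, Benjamini-Hochberg adjustment over all features at 0.05. Standard errors come from the F statistic and 95% intervals from its degrees of freedom. CPM values use TMM-scaled library sizes, and replicate differences exceeded counting noise (chi-square per gene 2.3 to 11.1). No molecular identifiers marked PCR copies, so reads are not all separate molecules and intervals do not cover this. The test was checked on simulated data. Alternatives were leaving out each library, the replicate block, a mean of at least 10 CPM or no filter, other scalings, DESeq2 1.42.0, limma-trend (limma 3.58.1) on log2(FPKM + 1) or log2(FPKM + 0.1), and a GC correction (spline, 5 degrees of freedom; GC from GENCODE transcripts, prior count 2). Members and lists were chosen with earlier results of these data known. Values in every library are given for AURKA, members with an unadjusted p under 0.05, the 2 of smallest p in each role and the highest and lowest by FPKM. Of the other pathway genes, those called and the 2 of smallest p in each group are named. The other member and transcript values named were seen first. Promoter windows were matched by gene ID for 32 members. GDF15 was not analysed here. Coordinates are those of the RefSeq windows and not of the authors' build. The labels do not say whether matching replicate numbers pair the libraries, and the main test did not treat them as pairs.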

Additional observations from a re-analysis of the deposited data

How the results depend on the processing

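No member was called under 14 of the 17 alternatives. The exceptions were the fit without control replicate 3 (7 called, ATF3, CEBPB, PYCR1, SHMT2, WARS, SLC38A1 and SLC38A2), the GC correction (2, ATF5 and DDIT4) and the replicate block with GC correction (the same 2). Of 591 member estimates under an alternative, 11 passed the threshold, beside 0.388% to 15.3% of all genes in the single alternatives. These estimates reuse the same 6 libraries and are not separate from each other. The sign differed from that with all libraries for 3 to 7 members in fits that left out a library and for 5 after GC correction, none of them a called gene. Leaving out 1 library gave 0 to 7 called members, 1 to 15 other pathway genes and 98 to 2034 genes in all (111 without C1, 234 without C2, 2034 without C3, and 154, 101 and 98 without A1, A2 and A3). Over all genes, 267 were called in the main comparison, 789 with the GC correction, 881 with the block and GC correction, and 67 with limma-trend on log2(FPKM + 1) without a filter. Other pathway genes called numbered 1 in the main comparison, 2 with the replicate block (STC2 and EPRS, adjusted p = 0.0472) and 6 with either GC correction. DESeq2 called 1 member transcript where edgeR called 0. STC2 passed under all 17, from -0.69 to -0.46 on the log2 scale. With the replicate block alone, 0 members were called and 385 genes. The labels do not say whether same-numbered libraries share more than a number. The correlations of same-numbered libraries' deviations were 0.0514, -0.105 and 0.0951, and A1 followed C2 most (0.166). With 3 libraries per group these values cannot settle whether the libraries were paired. Depth limits what can be said of PSAT1, ATF3, CHAC1, CTH and CBS. The cause of the difference made by C3 was not tested.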
